A study of Mus musculus with 10 samples.

Results

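The 10 genes described here are standard markers of macrophages, found by symbol in the deposited expression table: Adgre1, Csf1r, Cd68, Mrc1, Cd163, Lyz2, C1qa, C1qb, C1qc and Tyrobp. Each had 1 of the 54256 gene records, and all 10 were among the 16131 genes expressed highly enough to be tested. The tissue was the infundibulum, the funnel at the ovarian end of the oviduct, of C57BL/6 mice aged 8 to 10 weeks. Mice received saline or recombinant murine prolactin (rmPRL) over 7 days, and 5 libraries were made per group. A library pooled 4 infundibula from 2 mice, so a value is an average over a pair of animals. The saline titles carry the tag WT and the rmPRL titles name no genotype. Every library was labelled proestrus except rmPRL library 2, labelled diestrus.

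Macrophages are resident phagocytes that clear dying cells and debris. They depend for survival on the receptor encoded by Csf1r, which binds the cytokines Csf1 and Il34, and on the transcription factor Spi1 (PU.1) for much of their gene expression. They live throughout the reproductive tract and in the corpus luteum of the nearby ovary, and prolactin is a pituitary hormone with receptors in both reproductive and immune tissues.

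Values are TPM, transcript abundances corrected for transcript length, so levels can be compared between genes. They keep no record of depth, and the counting error of a single value is therefore unknown. In whole tissue RNA, 8 oviduct epithelium genes summed to 9916 to 12763 TPM (saline) and 6954 to 11541 TPM (rmPRL), while the 10 macrophage genes summed to 227 to 403 TPM (saline) and 297 to 437 TPM (rmPRL). Luteal genes were uneven. Cyp11a1, which starts steroid synthesis, reached 135 TPM (saline library 4) and 125 TPM (rmPRL library 2), with 0.340 to 6.27 TPM in the other 8. Below, group values are means ± SD over 5 libraries, with saline given first.

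Promoter windows, from 250 bases before to 50 after the start site, were in the RefSeq table (GRCm38.p6) for 6 of the 10 genes: C1qb, C1qc, Cd68, Mrc1, Cd163 and Lyz2. The windows printed are the 4 that hold GAGGAA, the core of the sequence PU.1 recognises, on either strand, to show where the motif lies. Capitals mark the match, which reads TTCCTC where it lies on the opposite strand. The windows are chr4:136886151-136886450 (minus strand) for C1qb, chr4:136892865-136893164 (minus) for C1qc, chr11:69666121-69666420 (minus) for Cd68 and chr2:14229164-14229463 (plus) for Mrc1.
C1qb: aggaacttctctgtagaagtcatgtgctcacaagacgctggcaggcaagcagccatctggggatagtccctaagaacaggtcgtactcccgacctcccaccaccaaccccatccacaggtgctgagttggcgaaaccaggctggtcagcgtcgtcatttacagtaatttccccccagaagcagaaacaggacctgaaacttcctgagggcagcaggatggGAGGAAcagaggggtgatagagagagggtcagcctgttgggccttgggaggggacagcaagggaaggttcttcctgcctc
C1qc: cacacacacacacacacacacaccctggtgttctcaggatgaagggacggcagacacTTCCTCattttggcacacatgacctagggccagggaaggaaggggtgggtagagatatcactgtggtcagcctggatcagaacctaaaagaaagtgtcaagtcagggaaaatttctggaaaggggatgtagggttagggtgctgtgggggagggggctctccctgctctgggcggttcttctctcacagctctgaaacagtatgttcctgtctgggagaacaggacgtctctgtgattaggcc
Cd68: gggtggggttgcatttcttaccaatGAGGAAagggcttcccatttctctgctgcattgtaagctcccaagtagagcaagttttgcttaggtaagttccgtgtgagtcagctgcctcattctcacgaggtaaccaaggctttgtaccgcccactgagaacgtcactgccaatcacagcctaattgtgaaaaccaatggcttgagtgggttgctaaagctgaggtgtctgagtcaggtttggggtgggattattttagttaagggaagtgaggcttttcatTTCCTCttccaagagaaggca
Mrc1: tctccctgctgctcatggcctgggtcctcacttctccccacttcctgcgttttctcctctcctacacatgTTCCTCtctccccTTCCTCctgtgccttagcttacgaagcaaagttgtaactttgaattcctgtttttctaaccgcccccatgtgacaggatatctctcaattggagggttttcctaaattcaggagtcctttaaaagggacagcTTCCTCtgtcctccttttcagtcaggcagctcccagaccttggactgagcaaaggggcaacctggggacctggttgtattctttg

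C1qb and C1qc hold 1 match each, Cd68 holds 2 and Mrc1 holds 3. The motif is common: 28.3% of all 32851 windows hold it on either strand. TGANTCA, searched as the AP-1 site on both strands, was in Cd68 alone of the 6, against 7.81% of all windows, and TATAAA was in 0 of the 6, against 13.6%. These matches describe letters only.

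All 10 genes had higher means after rmPRL than after saline, and none passed the gene test. Mrc1, Cd68, Cd163 and C1qa had the largest log2 differences, with rmPRL means 1.34 to 1.59 times the saline means, and Csf1r had the smallest, at 1.11 times. Saline library 1 was the highest and saline library 3 the lowest of the saline libraries for each of the 10 genes. For 0 of 10 did all rmPRL libraries lie above all saline libraries, against 1.49% of tested genes.

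The test was limma on log2(TPM + 1) over all 16131 genes, two-sided, with Benjamini-Hochberg adjustment and a threshold of 0.05. Of the 10 genes, 0 passed, against 0.0248% of tested genes in either direction and 0.0186% higher. At an unadjusted p under 0.05, 6 of 10 were higher and 0 lower, where 6.14% of tested genes were higher, 9.91% lower and 16.0% either. Without Cd163, which met the filter on its rmPRL values but would not have on its saline values, 5 of 9 were higher at that level. A positive log2 difference was seen in 10 of 10 (9 of 9 without Cd163), against 43.5% of tested genes. The median over the 10 was 0.36 (0.33 without Cd163), against -0.026 over all tested genes, and 3.40% of tested genes lay above the former. In whole tissue, a different number of macrophages and a different amount of RNA per macrophage cannot be told apart.

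**Figure D1:**
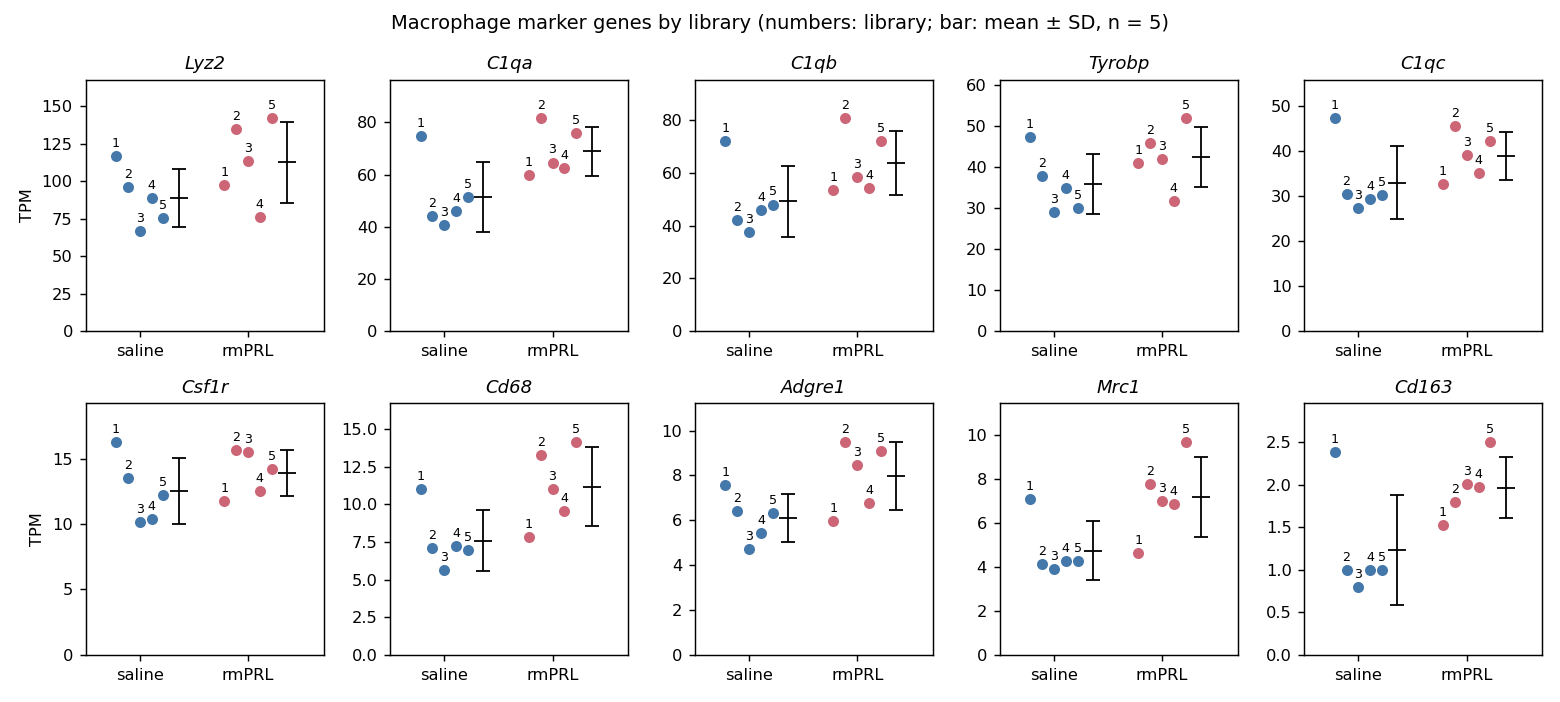
TPM (vertical axes, linear from 0) of the 10 genes in saline (blue) and rmPRL (red) libraries, numbered by library, with mean ± SD (n = 5) beside the points. Saline library 1 lies above the other 4 saline libraries in every panel.

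Among the general markers, Adgre1 encodes the adhesion receptor F4/80 (ENSMUSG00000004730.15, chromosome 17, 57358691 to 57483527, plus strand, GRCm38). It read 7.56, 6.40, 4.74, 5.45 and 6.34 TPM across saline libraries 1 to 5 and 5.98, 9.50, 8.45, 6.79 and 9.10 TPM across rmPRL libraries 1 to 5. Libraries 2, 3 and 5 of rmPRL lay above every saline library, and the other values overlapped. The test gave a log2 difference of 0.33 (SE 0.14, 95% interval 0.023 to 0.64, limma adjusted p = 0.287).

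Csf1r, the receptor for Csf1 and Il34 (ENSMUSG00000024621.16, chromosome 18, 61100598 to 61132149, plus strand), read 16.3, 13.5, 10.2, 10.4 and 12.3 TPM in saline order and 11.7, 15.7, 15.5, 12.5 and 14.2 TPM in rmPRL order. Saline library 1 was the highest of all 10, and no rmPRL library exceeded it. Across all genes, limma gave a log2 difference of 0.15 (SE 0.13, 95% interval -0.13 to 0.44, limma adjusted p = 0.560). The gene shares 873 exonic bases with Hmgxb3 on the other strand, at a mean of 20.8 TPM, and whether counting used strand is unstated, so its level is uncertain.

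Cd68, a lysosomal glycoprotein of phagocytes (ENSMUSG00000018774.13, chromosome 11, 69664213 to 69666153, minus strand), read 11.0, 7.10, 5.60, 7.23 and 6.93 TPM in saline order and 7.82, 13.3, 11.0, 9.54 and 14.1 TPM in rmPRL order. Saline libraries 2 to 5 lay below all rmPRL libraries, and saline library 1 lay among them. The test gave a log2 difference of 0.50 (SE 0.18, 95% interval 0.11 to 0.90, limma adjusted p = 0.237).

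Tyrobp, the signalling adaptor DAP12 (ENSMUSG00000030579.10, chromosome 7, 30413760 to 30417585, plus strand), read 47.2, 37.8, 29.1, 34.9 and 30.0 TPM in saline order and 40.8, 45.9, 41.8, 31.7 and 51.8 TPM in rmPRL order. The groups overlapped, and rmPRL library 5 alone exceeded every saline library. For Tyrobp the result was a log2 difference of 0.24 (SE 0.15, 95% interval -0.082 to 0.57, limma adjusted p = 0.416).

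Of the scavenger receptors, Mrc1 encodes the mannose receptor CD206 (ENSMUSG00000026712.3, chromosome 2, 14229392 to 14332057, plus strand). It read 7.09, 4.13, 3.91, 4.28 and 4.26 TPM in saline order and 4.64, 7.76, 7.01, 6.83 and 9.68 TPM in rmPRL order. Saline libraries 2 to 5 were close together and below all rmPRL libraries, while saline library 1 was within the rmPRL range. Its comparison yielded a log2 difference of 0.51 (SE 0.18, 95% interval 0.11 to 0.91, limma adjusted p = 0.236). Lymphatic endothelium also makes Mrc1. Of its 7 listed markers, 5 of 6 tested had positive log2 differences (43.5% of all tested genes), with a median of 0.39 and 0 passing. Without Flt4 and Reln, which met the filter on rmPRL but would not have on saline values, 3 of 4 were positive (median 0.39). The 7 markers summed to 191 to 271 TPM (saline) and 207 to 293 TPM (rmPRL), highest in saline library 4 and rmPRL library 5. Without Pdpn, the most abundant, they summed to 43.6 to 122 and 53.8 to 158 TPM, highest in saline library 4 and rmPRL library 2. The defining gene Prox1 ran from 0.144 to 0.565 TPM and none was at 0 throughout; their part in the Mrc1 values was not tested.

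Cd163, which takes up haemoglobin bound to haptoglobin (ENSMUSG00000008845.9, chromosome 6, 124304656 to 124330527, plus strand), read 2.38, 0.996, 0.794, 1.00 and 0.991 TPM in saline order and 1.53, 1.80, 2.01, 1.97 and 2.50 TPM in rmPRL order. Only rmPRL library 5 exceeded saline library 1, and saline libraries 2 to 5 lay below all rmPRL libraries. It reached 1 TPM in 2 saline and 5 rmPRL libraries, so it met the filter of 1 TPM in 5 libraries on the rmPRL values but would not have on the saline values. For Cd163 limma gave a log2 difference of 0.44 (SE 0.17, 95% interval 0.066 to 0.82, limma adjusted p = 0.260), on a scale that understates changes of low genes.

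Lyz2, the lysozyme of macrophages and neutrophils (ENSMUSG00000069516.8, chromosome 10, 117277331 to 117282321, minus strand), read 117, 95.7, 66.5, 89.0 and 75.1 TPM in saline order and 97.1, 135, 113, 76.1 and 142 TPM in rmPRL order. The groups overlapped widely, with rmPRL libraries 2 and 5 above every saline library. The test gave a log2 difference of 0.33 (SE 0.19, 95% interval -0.08 to 0.75, limma adjusted p = 0.389). Lyz1, its neighbour on the chromosome, is 96.0% identical over 1262 aligned transcript bases, so the split of reads between them is uncertain; Lyz1 was listed at 0.774 to 4.14 TPM and its ratio to Lyz2 ran from 0.00822 to 0.0432.

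The chains of C1q, the recognition part of the first complement component, are made mostly by macrophages and are encoded side by side on the minus strand of chromosome 4 (GRCm38). C1qb lies at 136880129 to 136886187, C1qc at 136889804 to 136893065 and C1qa at 136895917 to 136898803. C1qa read 74.6, 44.1, 40.8, 45.9 and 51.4 TPM in saline order and 59.8, 81.7, 64.6, 62.4 and 76.0 TPM in rmPRL order. Saline library 1 lay among the rmPRL libraries and the other 4 lay below them all. The test gave a log2 difference of 0.44 (SE 0.15, 95% interval 0.11 to 0.77, limma adjusted p = 0.230).

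C1qb read 72.3, 42.3, 37.8, 46.1 and 48.0 TPM in saline order and 53.4, 80.8, 58.5, 54.3 and 72.0 TPM in rmPRL order. It placed the libraries much as C1qa did, but rmPRL library 2 alone exceeded saline library 1. This corresponded to a log2 difference of 0.38 (SE 0.17, 95% interval 0.0059 to 0.76, limma adjusted p = 0.306).

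C1qc read 47.2, 30.3, 27.4, 29.4 and 30.3 TPM in saline order and 32.6, 45.5, 39.1, 35.0 and 42.1 TPM in rmPRL order. Saline library 1 was the highest of all 10, and the other 4 saline libraries lay below every rmPRL library. Here the fit gave a log2 difference of 0.25 (SE 0.14, 95% interval -0.061 to 0.56, limma adjusted p = 0.390).

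Of the proportions of the chains, that of C1qb to C1qa varied least. C1qb over C1qa was 0.958 ± 0.0310 against 0.921 ± 0.0480, with a coefficient of variation of 4.56% over all libraries, against 8.51% for C1qc over C1qa and 8.02% for C1qb over C1qc. C1qc over C1qa was 0.633, 0.687, 0.671, 0.639 and 0.589 in saline order and 0.545, 0.557, 0.605, 0.560 and 0.555 in rmPRL order. Only rmPRL library 3 reached into the saline range, above saline library 5.

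Relative to C1qa, C1qc was lower after rmPRL, with a log2 difference of the ratio of -0.19 (two-sided exact permutation test, p = 0.0159, adjusted over 3 ratios 0.0476). The adjustment covered the 3 C1q ratios alone. Exact p values of other gene ratios were also computed and are not given, so the adjusted value is not corrected for them. C1qb over C1qa gave -0.058 (exact p = 0.175, adjusted 0.175) and C1qb over C1qc gave 0.13 (exact p = 0.0873, adjusted 0.131), neither past 0.05. With single libraries left out, C1qc over C1qa gave -0.22 to -0.17. Its exact permutation p adjusted over the 3 ratios then passed 0.05 in 2 of 10 cases, at 0.0476 without saline library 5 or rmPRL library 3, and was 0.0714 without rmPRL library 2 and 0.0953 without any one of the other 7. Without both saline library 4 and rmPRL library 2 it was 0.129. The exact permutation test has coarse steps in so few libraries, and with 1 left out its smallest possible p is 0.0159. With 2 left out, as above, that smallest p is larger, and 1 ratio alone could not then pass 0.05 after adjustment over 3. A failure to pass therefore does not show that the call rests on the libraries left out.

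**Figure D2:**
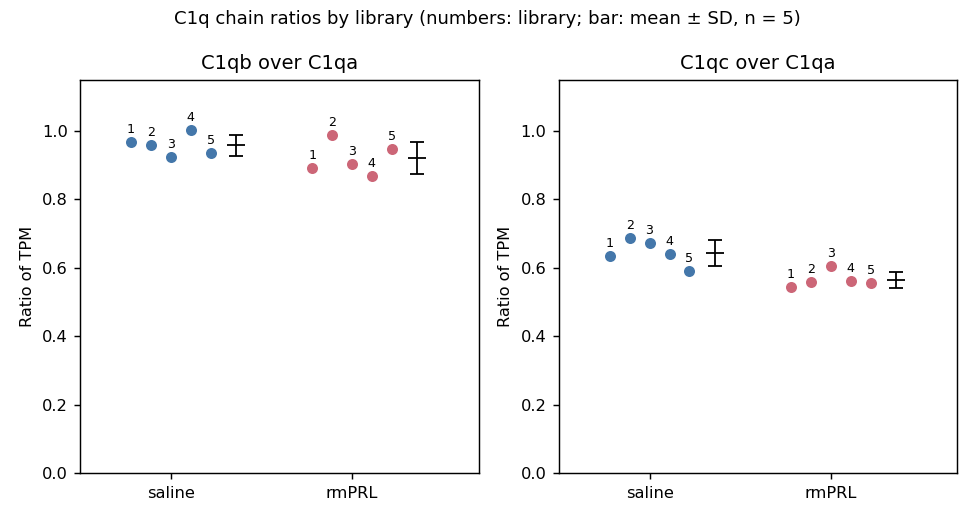
Ratios of TPM (vertical axes, linear from 0) of C1qb and of C1qc to C1qa in saline (blue) and rmPRL (red) libraries, numbered, with mean ± SD (n = 5) beside the points. C1qc over C1qa was 0.644 ± 0.0379 against 0.564 ± 0.0236, with 1 rmPRL library inside the saline range.

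In TPM over all libraries, the mean levels ran from Lyz2 (101) through C1qa (60.1), C1qb (56.5), Tyrobp (39.1), C1qc (35.9), Csf1r (13.2), Cd68 (9.37), Adgre1 (7.03) and Mrc1 (5.96) to Cd163 (1.60). Neighbours kept this order in 10 of 10 libraries, except C1qa over C1qb (9 of 10), Tyrobp over C1qc (7 of 10) and Adgre1 over Mrc1 (8 of 10). The ranges of neighbours overlapped in all but C1qc with Csf1r and Mrc1 with Cd163.

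The spread between libraries was shared by the genes. Saline library 1 stood at 1.24 to 1.93 times the saline mean over the 10 genes, and saline library 3 at 0.645 to 0.832 times. Saline library 1 was above the other 4 for 19.4% of tested genes and saline library 3 below them for 24.0%. Within rmPRL, library 2 was highest for 5 genes and library 5 for the other 5, at medians of 1.54 and 1.49 times the saline mean. Library 1 of rmPRL was lowest for 8 genes and library 4 for Lyz2 and Tyrobp.

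**Figure D3:**
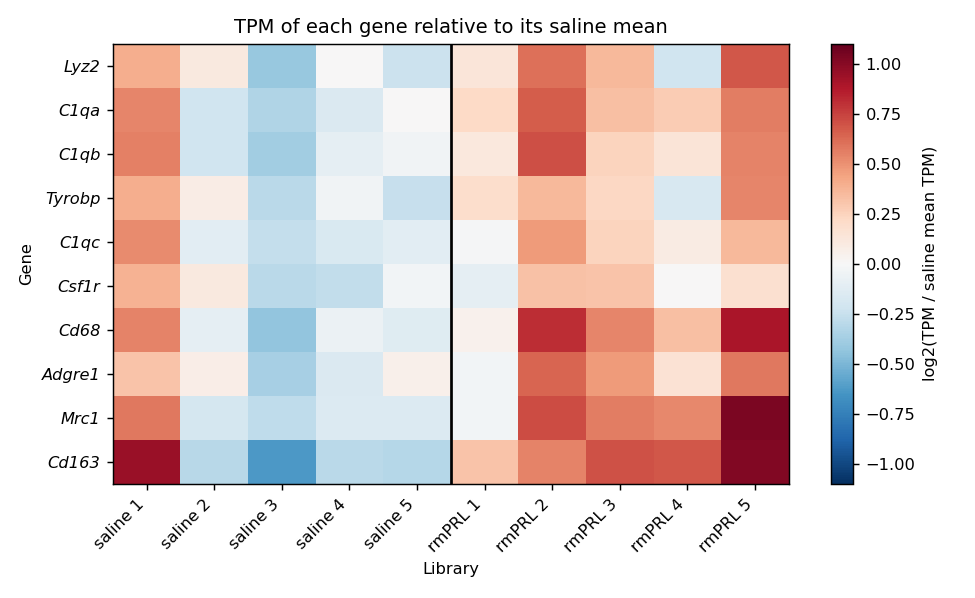
Colour gives log2 of TPM over the gene's saline mean, blue lower and red higher, for each gene (rows, by mean level) and library (columns). Saline 1 and rmPRL 2, 3 and 5 are above the saline mean for all 10 genes, and saline 3 is below it for all 10.

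Over the 10 libraries, the 45 pairs of these genes had Pearson r of log2(TPM + 1) from 0.73 to 0.98, with a median of 0.88. With group means subtracted the range was 0.63 to 0.99 and the median 0.82. The points share libraries, tissue makeup and treatment, so these are descriptions. The closest partners were C1qa with C1qb, Lyz2 with Tyrobp and Cd68 with Mrc1, and the least close pair was Cd163 with Lyz2.

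Outside the group, the 10 genes most like its mean standardised profile, by Pearson r over 10 libraries, were Clec4a3, Coro1a, Themis2, Ifi207, Fcer1g, C3ar1, Nckap1l, Ms4a6c, Fcrls and Clec4a1, with r from 0.96 to 0.98 and rho from 0.85 to 0.99. Without the 2 libraries farthest from the median, rmPRL 2 and rmPRL 5, r was 0.94 to 0.99. Coro1a, an actin regulator of leukocytes, averaged 11.3 ± 3.94 against 16.4 ± 2.77 TPM (limma adjusted p = 0.233). Fcer1g, an adaptor of Fc receptors, averaged 21.1 ± 6.07 against 26.9 ± 6.32 TPM (limma adjusted p = 0.372).

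**Figure D4:**
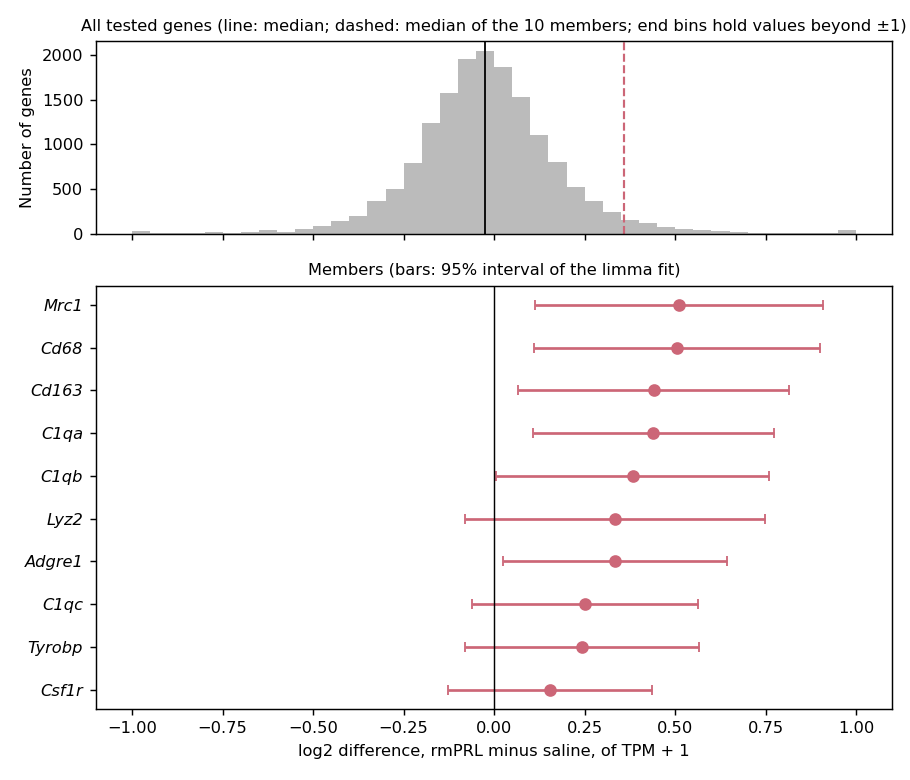
Top, log2 differences (rmPRL minus saline, of TPM + 1) of all tested genes, with their median (line, -0.026) and that of the 10 macrophage genes (dashed, 0.36). Bottom, each of the 10 with its 95% interval, which lies above 0 for 6 genes and includes 0 for Lyz2, C1qc, Tyrobp and Csf1r.

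Of other macrophage markers, 14 of 16 tested genes had positive log2 differences, and the median was 0.25. Of the 16, 0 passed, and 3 were higher and 1 lower at an unadjusted p under 0.05 (limma). For this list and those below, the shares over all tested genes were 43.5% positive, 6.14% higher and 9.91% lower. Pf4, a chemokine of platelets and some macrophages, averaged 7.89 ± 2.83 against 13.3 ± 4.37 TPM (limma adjusted p = 0.241). Mpeg1, a pore-forming protein of phagocytes, averaged 11.7 ± 1.30 against 14.5 ± 2.56 TPM (limma adjusted p = 0.282). Mertk, a receptor for dying cells, averaged 6.30 ± 1.49 against 6.40 ± 1.65 TPM, with a log2 difference of 0.014 (95% interval -0.38 to 0.40). Lgmn, a lysosomal protease, averaged 62.3 ± 3.98 against 55.1 ± 5.32 TPM (limma adjusted p = 0.276).

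Of markers of resident and perivascular macrophages, 7 of 8 tested genes had positive log2 differences, and the median was 0.34. Of the 8, 0 passed, and 1 was higher and 1 lower at an unadjusted p under 0.05 (limma). Without Cd209f, which met the filter on its rmPRL but would not have on its saline values, 6 of 7 were positive (median 0.24). The positive genes include Cbr2 (175 ± 20.1 against 191 ± 16.9 TPM) and Gas6 (247 ± 27.1 against 296 ± 70.1 TPM). Both lay above all 10 macrophage genes in level, and Cbr2 was highest in saline library 3 and rmPRL library 4. Their source was not tested. Selenop, a secreted selenium carrier made by many cells and the most abundant of the list, averaged 466 ± 138 against 332 ± 79.6 TPM (log2 difference -0.47, limma adjusted p = 0.288), on the lower side. F13a1, a clotting factor chain of resident macrophages and platelets, averaged 3.26 ± 1.33 against 5.28 ± 1.97 TPM (limma adjusted p = 0.296). Stab1, a scavenger receptor, averaged 9.95 ± 3.56 against 14.3 ± 4.19 TPM. Lyve1, a hyaluronan receptor of some macrophages and of lymphatic vessels, averaged 3.70 ± 1.54 against 5.60 ± 2.94 TPM, and Folr2, a folate receptor, 2.29 ± 0.929 against 2.88 ± 1.52 TPM. Stab1, Lyve1 and Folr2 were highest in rmPRL library 5. Timd4, a receptor for phosphatidylserine, ran from 0.0120 to 0.387 TPM and was not tested.

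Of monocyte markers, 5 of 6 tested genes had positive log2 differences, 0 passed, 2 higher and 1 lower had an unadjusted p under 0.05 (limma), and the median was 0.29. Ly6c2 and Vcan met the filter on their rmPRL values and would not have on their saline values. Of the other 4, 3 were positive, with a median of 0.16, and 1 was higher and 1 lower at that level. Ccr2, by which monocytes enter tissue, averaged 6.13 ± 1.45 against 8.38 ± 1.67 TPM (limma adjusted p = 0.277). Ace, a peptidase also made outside monocytes, averaged 56.4 ± 15.4 against 42.4 ± 5.32 TPM (limma adjusted p = 0.284), on the lower side. Ly6c2, a surface protein of inflammatory monocytes, read 0.995, 0.340, 0.587, 0.465 and 0.744 TPM in saline order and 1.04, 1.08, 1.17, 1.01 and 2.08 TPM in rmPRL order. All saline libraries were under 1 TPM and all rmPRL libraries above it, so the difference itself brought the gene into the test, and no weight is put on its limma adjusted p of 0.210.

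Of ligands, receptors and transcription factors of macrophages, 9 of 13 tested genes had positive log2 differences, 0 passed, 2 higher and 2 lower had an unadjusted p under 0.05 (limma), and the median was 0.18. The ligand Csf1 averaged 7.75 ± 0.820 against 10.5 ± 1.67 TPM, with 4 of 5 rmPRL libraries above every saline library (log2 difference 0.38, limma adjusted p = 0.199). Il34, the other ligand, averaged 13.2 ± 2.09 against 10.5 ± 2.11 TPM (log2 difference -0.31, limma adjusted p = 0.306). Spi1 averaged 3.90 ± 2.15 against 5.23 ± 1.30 TPM, and its highest value, 7.61 TPM, was in saline library 1.

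Of receptors and kinases that act with Tyrobp, 6 of 8 tested genes had positive log2 differences, and the median was 0.22. Of the 8, 0 passed, and 0 were higher and 1 lower at an unadjusted p under 0.05 (limma). Without Sirpb1a, which met the filter on its rmPRL but would not have on its saline values, 5 of 7 were positive (median 0.19). Trem2, a lipid-sensing receptor, averaged 3.70 ± 0.815 against 4.81 ± 1.71 TPM, and the kinase Syk averaged 3.28 ± 0.667 against 3.48 ± 0.862 TPM. Lyn, a kinase not limited to leukocytes, averaged 44.1 ± 3.33 against 37.5 ± 3.96 TPM (limma adjusted p = 0.226).

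Of C1 complex partners, C1q-binding proteins and later complement genes, 12 of 12 tested genes had positive log2 differences, against 43.5% of all tested genes. The median was 0.24 and 0 passed. At an unadjusted p under 0.05 (limma), 3 were higher and 0 lower, against 6.14% and 9.91% of tested genes. The 3 at an unadjusted p under 0.05 were C1qbp, a C1q-binding protein found mostly in mitochondria, and C3ar1 and C5ar1, the receptors for the C3a and C5a fragments and not for C1q. C5ar1 lay near the filter, at 0.530 to 1.51 TPM (saline) and 0.874 to 4.72 TPM (rmPRL). Neither group alone would have met it, so little weight is put on C5ar1. The proteases that join C1q, C1ra and C1s1, averaged 19.6 ± 4.00 against 20.7 ± 3.39 TPM and 72.9 ± 20.4 against 74.4 ± 9.72 TPM, with log2 differences of 0.08 (95% interval -0.25 to 0.41) and 0.069 (95% interval -0.34 to 0.48).

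Of 13 listed inflammatory genes, 3 of 4 tested had positive log2 differences, and the median was 0.10. Of the 4, 0 passed, and 0 were higher or lower at an unadjusted p under 0.05 (limma). Without Ccl2, which met the filter on its rmPRL but would not have on its saline values, 2 of 3 were positive (median 0.013). Of alternative activation genes, 6 of 8 tested genes had positive log2 differences, 0 passed, 2 higher and 0 lower had an unadjusted p under 0.05 (limma), and the median was 0.12. Mgl2, a lectin, averaged 6.34 ± 1.93 against 9.47 ± 1.62 TPM (limma adjusted p = 0.229), and Retnla, induced by type 2 cytokines, averaged 3.56 ± 1.30 against 6.53 ± 3.21 TPM (limma adjusted p = 0.291).

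Of lysosomal and phagocytic genes, many of them made by most cells, 5 of 16 tested genes had positive log2 differences, 0 passed, 1 higher and 1 lower had an unadjusted p under 0.05 (limma), and the median was -0.11. Cd63, a lysosomal tetraspanin, averaged 227 ± 28.0 against 263 ± 27.7 TPM (limma adjusted p = 0.306), and the protease Ctsl averaged 589 ± 92.3 against 484 ± 72.2 TPM (limma adjusted p = 0.308). Of other scavenger receptors, 4 of 8 tested genes had positive log2 differences, 0 passed, 0 higher and 0 lower had an unadjusted p under 0.05 (limma), and the median was 0.014. Of MHC class II genes, which present antigen on macrophages, dendritic cells and B cells, 8 of 8 tested genes had positive log2 differences, 0 passed, 5 higher and 0 lower had an unadjusted p under 0.05 (limma), and the median was 0.22. Without Ciita and H2-Oa, which met the filter on rmPRL but would not have on saline values, 4 of 6 were higher at that level. The share over all tested genes was 6.14%. Cd74, the invariant chain, averaged 194 ± 26.2 against 238 ± 13.1 TPM (limma adjusted p = 0.199).

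Some lists of other cells peaked in the same libraries and others did not. The 12 fibroblast and matrix genes summed to 988 to 2203 TPM (saline) and 1546 to 2944 TPM (rmPRL), highest in saline library 1 and rmPRL library 5, and 11 of 12 had positive log2 differences, with a median of 0.35 and 0 passing. The 8 blood endothelium markers summed to 64.7 to 137 TPM (saline) and 90.6 to 160 TPM (rmPRL), highest in saline library 1 and rmPRL library 2 (median 0.26). The 14 pan-leukocyte genes summed to 174 to 220 TPM (saline) and 189 to 249 TPM (rmPRL), highest in saline library 1 and rmPRL library 5 (median 0.28). Without Ncf4, which met the filter on its rmPRL but would not have on its saline values, the pan-leukocyte median was also 0.28. Of epithelium genes, 6 of 8 had negative log2 differences, 3 (Ovgp1, Krt18 and Epcam) at an unadjusted p under 0.05, with a median of -0.17 and 0 passing (limma), and the sum was highest in saline library 2 and rmPRL library 3. The mast cell list was highest in saline library 3 and rmPRL library 1. Its sum was mostly Hdc and Kit (saline means 545 and 87.1 TPM), which other cells also make. Its proteases Cpa3, Tpsb2, Cma1 and Mcpt4 were instead lowest in saline library 3. Cpa3 and Cma1 were highest in saline library 1 and rmPRL library 2, and Tpsb2 and Mcpt4 in saline library 4 and rmPRL library 5. No gene of these lists was at 0 throughout, and their part in the macrophage values was not tested.

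Ptprc (CD45), the phosphatase of all leukocytes, averaged 3.24 ± 0.738 against 4.56 ± 1.07 TPM (log2 difference 0.38, limma adjusted p = 0.287). Divided by Ptprc in the same library, Cd68, Mrc1 and Cd163 had positive log2 differences and the other 7 negative ones, from -0.32 for Csf1r to 0.29 for Cd163. Csf1r over Ptprc was 3.91 ± 0.450 against 3.14 ± 0.467, and Cd163 over Ptprc was 0.368 ± 0.111 against 0.441 ± 0.0769. These ratios rest on 1 low gene, and no test result is given for them.

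The differences depended on the libraries used. Without saline library 1 the median log2 difference was 0.48 and 9 of 10 were higher at an unadjusted p under 0.05 (7.63% of tested genes). In 6 genes (Cd68, Mrc1, Cd163, C1qa, C1qb and C1qc) all rmPRL libraries then lay above the 4 saline libraries, against 2.41% of tested genes. With all libraries it was 0 of 10. Saline library 1 was the highest saline library for all 10 genes, against 19.4% of tested genes. Leaving it out therefore favours these 10, and no weight is put on either count. The count at an unadjusted p under 0.05 (limma) was 4 without saline 2 (4.09%), 3 without saline 3 (4.84%), 3 without saline 4 (6.66%) and 3 without saline 5 (5.59%). It was 6 without rmPRL 1 (7.49%), 4 without rmPRL 3 (7.49%), 8 without rmPRL 4 (4.17%) and 3 without rmPRL 5 (4.04%). With proestrus libraries alone, which leaves out rmPRL 2, the median was 0.28 and the count 4 (4.53%). Without saline 4 and rmPRL 2, the libraries with high Cyp11a1, the median was 0.27 and the count 0 (5.12%).

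**Figure D5:**
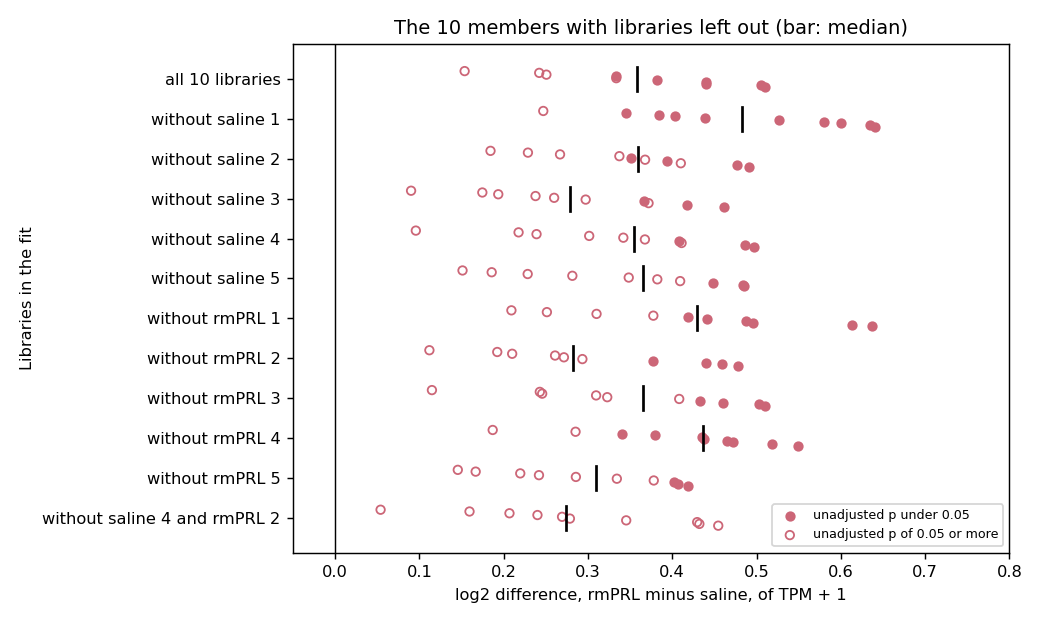
Log2 differences (rmPRL minus saline, of TPM + 1, horizontal axis) of the 10 genes with all libraries and with libraries left out (rows); filled points have an unadjusted limma p under 0.05 and bars mark medians. All differences shown are above 0, and the medians run from 0.27 to 0.48.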

How the data were processed

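RNA was purified from frozen mouse infundibula and made into stranded mRNA libraries, per the labels' protocols. Per the series' design text, reads were trimmed by Trimmomatic after FastQC, placed on mm10 by HISAT2 and counted by featureCounts, and the authors compared groups by DESeq2. The authors deposited TPM; their scaling, the annotation and the strand setting are not given in the sources used here. Because TPM carry no depth, count models were not used and the precision that depth gives is unknown. Libraries are separate pools of mice.

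Groups and numbers came from the titles. A gene was tested if 5 or more of the 10 libraries reached 1 TPM. Genes that met this only with libraries of both groups together were kept in all counts. limma 3.58.1 (R 4.3.3; trend and robust) compared log2(TPM + 1) between groups, with Benjamini-Hochberg adjustment. The code was tested on simulated data. C1q ratios had exact permutation tests (scipy 1.17.1). Coordinates are from GENCODE vM21 (GRCm38). Alternatives were other pseudocounts, filters, scalings, limma settings, a replicate block and libraries left out. Named genes were the 10, up to 4 per list by smallest p with a mean of at least 1 TPM, a fixed set and the 10 most alike. Some others are named to give a limit. The members and lists were chosen with earlier results of these data known.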

Additional observations from a re-analysis of the deposited data

Results flagged for a closer look

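Of 20 sets of 5 values (10 genes in 2 groups), 3 had a highest library separated from the rest by more than 0.71 of the set's range, Dixon's limit. All 3 were saline library 1: Mrc1 at 7.09 TPM (gap 0.885 of the range), Cd163 at 2.38 TPM (0.870) and C1qc at 47.2 TPM (0.853). Chance flags about 1 in 20 such sets, and these genes vary together. In the same library the 12 fibroblast and matrix genes summed to 2203 TPM, the most of the saline libraries. Its part in the values was not tested.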

How the results depend on the processing

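Over 21 alternatives (20 for Cd163, which missed a filter of 1 TPM in all 10 libraries), each of the 10 genes kept a positive log2 difference and 0 passed the adjusted threshold; their median ran from 0.27 (without saline 4 and rmPRL 2) to 0.48 (without saline 1). The lowest limma adjusted p was 0.0558, for Cd163 with array weights. Over all genes 4 passed, against 0 with no filter on low values (3276 at an unadjusted p under 0.05, limma), 270 with array weights and 1 to 18 with single libraries left out; the cause was not tested. With the replicate number as a block, 2 passed, and 2 of the 10 genes in place of 6 were higher at an unadjusted p under 0.05 (5.41% of tested genes); with array weights 7 were (9.08%). No pairing by number was seen: deviations of same-numbered libraries correlated at -0.248 to 0.108, and 1 of 5 correlated best with its own number. Such correlations cannot show that a pairing is absent. TMM scaling moved the median of all genes from -0.026 to 0.00184 and that of the 10 to 0.39. Leaving out Cd163, or libraries from the C1q ratios, was chosen after seeing the data: C1qb over C1qa had an exact p of 0.0476 without rmPRL 2, and C1qb over C1qc of 0.0476 without rmPRL 3. Depth is unknown, so the counting error of low genes such as Cd163 is too.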

Other observations

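The levels of other leukocyte markers varied widely. The 11 markers of T and natural killer cells summed to 6.01 to 8.02 TPM (saline) and 6.89 to 10.2 TPM (rmPRL), and 2 were tested with 0 passing (limma). Lck, a kinase of T cells, averaged 2.63 ± 0.733 against 2.80 ± 0.410 TPM (mean ± SD, saline first, n = 5 per group). Mmp8, a collagenase of neutrophils, ran from 5.30 to 29.2 TPM, and Jchain, the joining chain of antibodies, from 2.31 to 23.3 TPM. S100a8 and S100a9, calcium-binding proteins of neutrophils, ran from 0.165 to 4.27 and from 0.267 to 4.78 TPM, both highest in saline library 1. Both were lowest in saline library 2, where Mmp8 was highest of the saline libraries (29.1 TPM). Camp, also on the neutrophil list, was highest in the same libraries as Mmp8, saline 2 and rmPRL 1. The neutrophil markers Ly6g and Mpo reached at most 0.687 and 0.0518 TPM. Mmp8 is therefore not read as a level of neutrophils, and its source was not tested. The mast cell proteases Cpa3 and Tpsb2 averaged 2.18 ± 0.970 against 2.47 ± 1.29 TPM and 3.01 ± 1.26 against 3.50 ± 1.82 TPM, while Kit and Hdc, which other cells also make, averaged 87.1 ± 12.1 against 81.8 ± 7.46 TPM and 545 ± 49.4 against 491 ± 63.6 TPM.

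Of dendritic cell markers, 5 of 6 tested genes had positive log2 differences, against 43.5% of all tested genes, and the median was 0.34. Of the 6, 0 passed. At an unadjusted p under 0.05 (limma), 3 were higher and 0 lower, against 6.14% and 9.91% of tested genes. Without Batf3, whose saline values alone would not have met the filter, 2 of 5 were higher at that level. Cd209a, a lectin of monocyte-derived dendritic cells, read 3.00, 2.88, 2.05, 2.02 and 2.36 TPM in saline libraries 1 to 5 and 3.25, 3.11, 3.19, 3.35 and 5.72 TPM in rmPRL libraries 1 to 5. Every rmPRL library lay above every saline library, as in 1.49% of tested genes (limma adjusted p = 0.238). Cd209a was named for its small p within the list, so this separation carries no further weight. Clec10a, a lectin of macrophages and dendritic cells, averaged 4.89 ± 0.922 against 6.64 ± 0.626 TPM (limma adjusted p = 0.208).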
